A study of Mus musculus with 7 samples.

Results

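The growth hormone and insulin-like growth factor (IGF) axis is described here by 9 genes: Ghr, Igf1, Igf1r, Igf2r, Igfbp1, Igfbp3, Igfbp4, Igfbp5 and Igfbp7. They were selected by symbol among the 42256 gene rows of the deposited count table, and each symbol matched 1 row. All 9 had enough counts to enter the test, which covered 17964 genes. The RNA was from kidneys of adult males of mixed strain background (129S1/Sv by C57BL/6), and 3 of the mice were labelled CDH11+/+ (wild type) and 4 were labelled CDH11-/- (knockout of cadherin-11, an adhesion molecule of mesenchymal cells). Every mouse of both groups had been injured in the same way, by removal of 1 kidney followed by angiotensin II at 800 ng/kg/min from an implanted osmotic pump, and was killed 4 weeks after surgery. No uninjured kidney was analysed here, so a difference that existed before injury and a difference in the response to injury cannot be told apart. The allele and its driver are not described in the sources used here.

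Growth hormone from the pituitary binds its receptor on target cells and signals through the kinase JAK2 and the transcription factor STAT5, which in many tissues raises transcription of Igf1. IGF-I then acts through the IGF-I receptor, while a family of secreted binding proteins carries the IGFs, protects them or keeps them from the receptor, and proteases such as PAPP-A release them again. In the kidney this axis is known for its effects on glomerular filtration, on tubular phosphate handling and on growth of the remaining kidney after nephrectomy.

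The counts summed to between 72087906 and 84786351 in a library. Cdh11 did not have a lower count in the libraries labelled CDH11-/-, at 6.79, 4.52 and 10.8 CPM (counts scaled to a common library total of 1e+06) in CDH11+/+ replicates 1 to 3 and 11.3, 9.56, 11.6 and 11.0 CPM in CDH11-/- replicates 1 to 4 (adjusted p = 0.14, edgeR's quasi-likelihood test), so groups are called by their labels throughout. CDH11+/+ replicate 3 stood apart for 4 genes of the Y chromosome (Ddx3y, Eif2s3y, Kdm5d and Uty), whose CPM added up to 64.7 against 111 to 145 in the other libraries, and results that change without it are given below. Mitochondrial ribosomal RNA took 13.5% to 18.2% of the counts in the group labelled CDH11+/+ and 10.7% to 13.5% in the group labelled CDH11-/-. Markers of the labelled tissue were present in every library, with summed levels of 8956 to 15300 CPM for 8 proximal tubule genes and 284.1 to 524.3 CPM for 6 podocyte genes. Of the latter 4 were called lower in the group labelled CDH11-/-, as were 4 of 6 principal cell, 1 of 4 thick ascending limb, 1 of 3 distal convoluted tubule and 1 of 5 intercalated cell markers, with 0 of these called higher by edgeR (at an unadjusted p under 0.05, and with DESeq2, 1 distal convoluted tubule marker was higher, and with limma-voom 0). By edgeR 12.9% of all tested genes were called lower and 16.8% higher. These shares are the background for all marker counts, here and below.

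Of the 9 genes, 5 were higher in the libraries labelled CDH11-/- and 0 were lower at an adjusted p under 0.05, called by edgeR's quasi-likelihood test with Benjamini-Hochberg adjustment over all genes. Those 5 were Igfbp1, Ghr, Igfbp4, Igf2r and Igf1r. Over all tested genes 29.7% were called, 16.8% higher and 12.9% lower, which is the background for this count. At an unadjusted p under 0.05 (edgeR) 1 member was lower, and DESeq2 also called 1 lower and limma-voom 0, as given with Igfbp3 below. On the log2 scale the median difference of CDH11-/- over CDH11+/+ was 0.29 over the 9 genes and -0.014 over all tested genes.

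The promoters of the members with the largest log2 fold changes are shown first so that the bases before their starts can be read beside the values, together with the promoter of Igfbp3, the neighbour of Igfbp1. Each is the 250 bases before the RefSeq start of the gene on GRCm38.p6, read 5′ to 3′ on the strand of the gene. They lie at chr11:7197537-7197786 on the plus strand (Igfbp1), chr11:7213924-7214173 on the minus strand (Igfbp3), chr11:99040994-99041243 on the plus strand (Igfbp4) and chr15:3583353-3583602 on the minus strand (Ghr, the more upstream of its 2 starts in the table). Capitals mark matches, on either strand, to the TATA box TATAAA, the insulin response core CAAAACA, the FOXO core GTAAACA, the STAT5 motif TTCNNNGAA or the GC box GGGCGG.
Igfbp1: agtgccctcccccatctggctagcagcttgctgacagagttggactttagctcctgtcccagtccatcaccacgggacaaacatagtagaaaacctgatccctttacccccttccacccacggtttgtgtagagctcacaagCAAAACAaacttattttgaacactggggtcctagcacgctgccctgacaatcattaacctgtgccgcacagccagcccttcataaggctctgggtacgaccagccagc
Igfbp3: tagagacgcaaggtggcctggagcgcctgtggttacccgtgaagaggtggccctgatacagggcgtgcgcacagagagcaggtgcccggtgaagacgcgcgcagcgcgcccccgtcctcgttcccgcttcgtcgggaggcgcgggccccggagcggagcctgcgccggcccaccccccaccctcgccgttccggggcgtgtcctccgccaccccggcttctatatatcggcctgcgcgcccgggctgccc
Igfbp4: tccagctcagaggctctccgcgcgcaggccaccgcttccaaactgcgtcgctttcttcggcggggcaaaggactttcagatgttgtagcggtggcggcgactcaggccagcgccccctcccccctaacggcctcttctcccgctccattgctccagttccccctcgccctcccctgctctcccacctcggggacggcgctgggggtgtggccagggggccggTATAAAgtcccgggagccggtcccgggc
Ghr: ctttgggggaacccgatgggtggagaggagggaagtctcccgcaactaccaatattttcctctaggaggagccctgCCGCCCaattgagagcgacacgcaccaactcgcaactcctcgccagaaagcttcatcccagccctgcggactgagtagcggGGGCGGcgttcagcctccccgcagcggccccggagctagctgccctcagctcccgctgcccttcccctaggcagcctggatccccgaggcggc
The Igfbp1 promoter held CAAAACA 108 bases before the start, within the stretch known from the human and rat genes as the insulin response sequence, through which insulin represses transcription by way of FOXO factors. Of 32851 promoters of the same length, 5.56% held this core. The Igfbp4 promoter held TATAAA 28 bases before its start, a motif found in 12.4% of promoters. The Ghr promoter shown had 2 matches to the GC box, a motif found in any number in 32.7% of promoters. The Igfbp3 promoter had no match to the motifs searched. The window of the other Ghr start, not shown, held TATAAA 188 bases before that start and no GC box. GTAAACA (3.17% of promoters) and TTCNNNGAA (7.02%) were in 0 of the 10 promoter windows of the 9 genes. No motifs overlapped in the promoters shown.

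The 9 genes spanned a wide range of transcript levels, compared here per length as CPM per kilobase of annotated exon. Igfbp7 was the most abundant, with 384 to 488 CPM per kb over the 7 libraries, and it was followed by Igfbp4 with 82.3 to 173 CPM per kb. Igfbp5 came next at 50.3 to 72.8 CPM per kb. The ranges of Igfbp7, Igfbp4 and Igfbp5 did not overlap one another. Below them Ghr (29.7 to 66.4 CPM per kb), Igfbp3 (18.5 to 60.0), Igf2r (19.4 to 31.0) and Igf1r (20.5 to 25.1) followed in CPM per kb, and each overlapped the next in this order. The range of Ghr also overlapped that of Igfbp5 but lay above that of Igf1r. Ghr was above Igfbp3 in 4 of the 7 libraries, which were the 4 labelled CDH11-/-. Igfbp1 (0.599 to 3.77 CPM per kb) and Igf1 (0.286 to 0.643 CPM per kb) were far lower than every other member, and they overlapped each other.

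**Figure D1:**
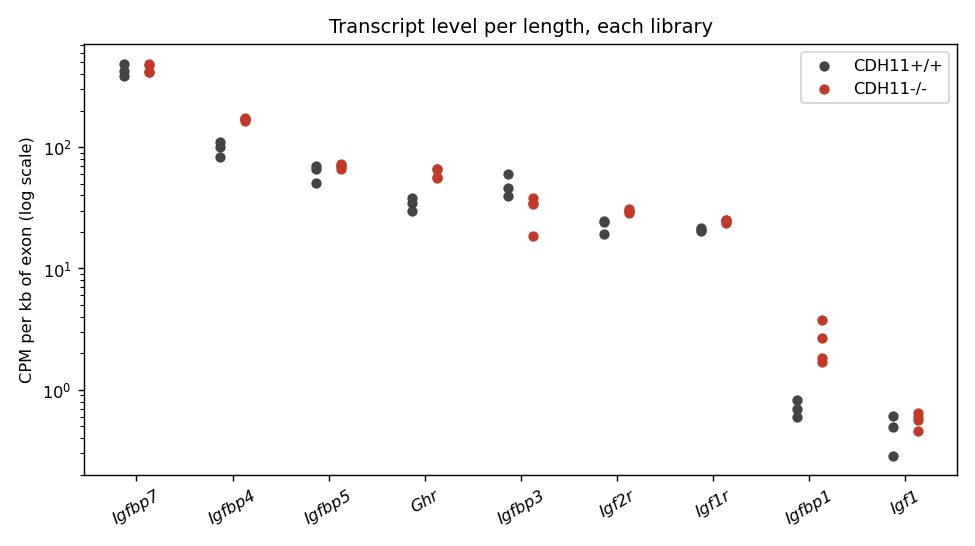
Level of each member per length (CPM per kb of exon, log scale) in each library, labelled CDH11+/+ in grey and CDH11-/- in red, ordered by the mean over the 7 libraries. Igfbp7 lay highest, at 384 to 488 CPM per kb, and Igf1 lowest, at 0.286 to 0.643 CPM per kb.

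Igf1 encodes IGF-I, the main growth-promoting target of growth hormone (ENSMUSG00000020053, mm10 chromosome 10, 87858265 to 87937042, plus strand). It had 4.88, 2.84 and 6.03 CPM in CDH11+/+ replicates 1 to 3 and 4.55, 5.58, 6.37 and 5.95 CPM in CDH11-/- replicates 1 to 4. The groups overlapped, and CDH11+/+ replicate 2 was the lowest library. Igf1 was not called (log2 fold change 0.29, SE 0.23, adjusted p = 0.388, edgeR). The 95% interval of the log2 fold change, from the SE and the t distribution at 5 residual degrees of freedom, ran from -0.31 to 0.89, so neither a small decrease nor a rise of that size could be told from no difference. Without CDH11+/+ replicate 2 the log2 fold change of Igf1 was 0.040, and without replicate 3 it was 0.53. The authors' normalized values divide each count by a factor specific to gene and library, and for Igf1 this factor was 0.760 to 1.07 times the median factor of the library in the group labelled CDH11+/+ and 0.808 to 1.32 times in the other. With those factors as offsets the log2 fold change of Igf1 was 0.016. Macrophages are a known source of Igf1, and 8 macrophage markers, of which 1 was called higher by edgeR and 0 lower (0 also at an unadjusted p under 0.05 and with DESeq2 and limma-voom), summed to 70.6, 36.7 and 95.9 CPM in the libraries labelled CDH11+/+ and to 75.0, 66.9, 90.2 and 79.3 CPM in those labelled CDH11-/-. CDH11+/+ replicate 2 was the lowest library for both, while the highest was CDH11-/- replicate 3 for Igf1 and CDH11+/+ replicate 3 for the markers. The part of macrophage transcripts in the Igf1 values was not tested.

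The other ligand genes were scarce. Growth hormone itself (Gh) had 0 counts in all 7 libraries, and a count of 0 allows up to 0.0416 CPM in the shallowest, from counting error alone. Igf2, the fetal growth factor cleared by the Igf2r product, had 2.17, 2.93 and 2.39 CPM in the libraries labelled CDH11+/+ and 1.43, 1.75, 1.16 and 1.19 CPM in the libraries labelled CDH11-/-. The groups did not overlap, and Igf2 was 1.81-fold lower in the group labelled CDH11-/- (adjusted p = 0.00994, edgeR).

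All 3 receptor genes among the members were called higher by edgeR, where 16.8% of all tested genes were called higher. Ghr, the growth hormone receptor (ENSMUSG00000055737, mm10 chromosome 15, 3317760 to 3583492, minus strand), had 344.2, 268.6 and 310.9 CPM in the libraries labelled CDH11+/+. In the libraries labelled CDH11-/- it had 506.2, 594.7, 517.1 and 600.8 CPM. Every library labelled CDH11-/- was above every library labelled CDH11+/+. The group means were 307.9 ± 37.9 (SD, n = 3) and 554.7 ± 50.0 CPM (SD, n = 4), which differed 1.80-fold (log2 fold change 0.85, SE 0.10, adjusted p = 0.000555, edgeR).

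Igf1r encodes the tyrosine kinase receptor through which IGF-I signals (ENSMUSG00000005533, mm10 chromosome 7, 67952827 to 68233668, plus strand). It had 365.3, 343.6 and 347.6 CPM in the libraries labelled CDH11+/+ and 419.8, 395.0, 422.1 and 417.3 CPM in the libraries labelled CDH11-/-. The groups were separate and tight, with coefficients of variation of 3.27% and 3.03%. The difference was small, 1.17-fold (log2 fold change 0.23, SE 0.062, adjusted p = 0.0204, edgeR). The call was lost without CDH11+/+ replicate 2 or 3 or CDH11-/- replicate 3 or 4 (adjusted p of 0.0660, 0.0502, 0.0566 and 0.0501, edgeR), where the log2 fold change stayed between 0.21 and 0.23.

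Igf2r encodes the cation-independent mannose 6-phosphate receptor, which sorts lysosomal enzymes and takes up IGF-II for degradation (ENSMUSG00000023830, mm10 chromosome 17, 12682406 to 12769664, minus strand). It had 180.5, 224.6 and 229.1 CPM in the libraries labelled CDH11+/+ and 265.4, 275.6, 288.1 and 274.6 CPM in the libraries labelled CDH11-/-. The groups did not overlap, and CDH11+/+ replicate 1 was the lowest library. The rise was 1.31-fold (log2 fold change 0.38, SE 0.089, adjusted p = 0.0108, edgeR). The antisense gene Airn overlaps Igf2r and had means of 3.14 and 4.31 CPM in the groups labelled CDH11+/+ and CDH11-/-. Airn was also called higher (log2 fold change 0.45, adjusted p = 0.0149, edgeR). Because the strand setting of the counting was not given, reads of the pair may not have been fully separated.

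The insulin receptor gene Insr, which is close kin to Igf1r, was not called, with means of 189.8 and 171.0 CPM in the groups labelled CDH11+/+ and CDH11-/- (log2 fold change -0.15, adjusted p = 0.183, edgeR). Prlr, the prolactin receptor, which like the growth hormone receptor signals through JAK2 and STAT5, was 5.77-fold lower (means of 42.9 ± 12.1, SD, n = 3, and 7.43 ± 3.21 CPM, SD, n = 4, adjusted p = 0.00342, edgeR). Ghr and Prlr thus differed in opposite directions between the same libraries.

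Most markers of the proximal tubule, a site of Ghr transcription in the kidney, were higher as well. Of 8 proximal tubule markers 5 were called higher by edgeR and 0 lower (0 also at an unadjusted p under 0.05 and with DESeq2 and limma-voom), and their summed level was 8956 to 10070 CPM in the group labelled CDH11+/+ and 13530 to 15300 CPM in the group labelled CDH11-/-. Lrp2, Slc34a1 and Slc27a2 made up most of that sum. Cubn, Slc5a12 and Hnf4a were not called, and Hnf4a was lower on average (log2 fold change -0.135). The part of the shift in these markers in the rises of Ghr, Igf1r and Igf2r was not tested. In whole kidney, more cells of a type and more RNA per cell cannot be told apart.

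**Figure D2:**
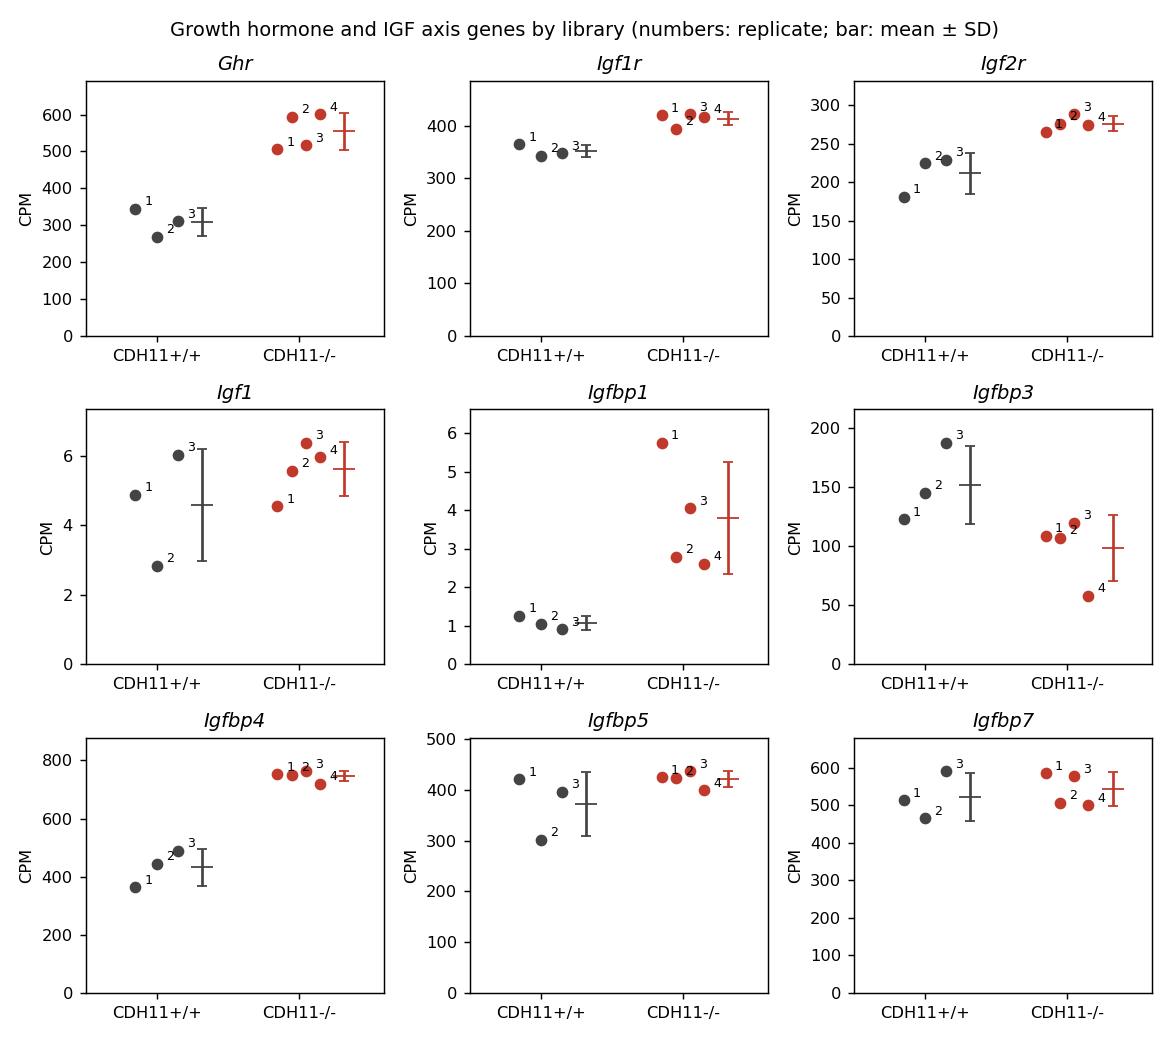
CPM of each of the 9 members in every library, 3 labelled CDH11+/+ and 4 labelled CDH11-/-, with replicate numbers beside the points and the mean ± SD of each group to their right. Ghr, Igf1r, Igf2r, Igfbp1 and Igfbp4 were higher in every library labelled CDH11-/-, Igfbp3 was lower in every one, and the groups overlapped for Igf1, Igfbp5 and Igfbp7. Over all tested genes, the groups did not overlap for 38.5%.

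Of the 5 binding protein genes, 2 were called higher, 0 were called lower and 3 were not called by edgeR. That is 40.0%, where 29.7% of all tested genes were called, 16.8% higher and 12.9% lower. The largest fold difference among all 9 members was that of Igfbp1, which encodes an acutely regulated binding protein made mostly by the liver and repressed there by insulin (ENSMUSG00000020429, mm10 chromosome 11, 7197782 to 7202546, plus strand). It had 89, 79 and 79 counts in the libraries labelled CDH11+/+ and 487, 200, 350 and 208 counts in the libraries labelled CDH11-/-. On the CPM scale these were 1.26, 1.06 and 0.913 against 5.75, 2.80, 4.05 and 2.61. The lowest library labelled CDH11-/- was above the highest library labelled CDH11+/+, and CDH11-/- replicate 1 was the highest of all. Igfbp1 rose 3.54-fold (log2 fold change 1.82, SE 0.30, adjusted p = 0.00245, edgeR), and the log2 fold change was 1.55 without CDH11-/- replicate 1. The values spread more in the group labelled CDH11-/-, with a coefficient of variation of 38.2% against 16.3%.

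Liver transcripts were looked for beside Igfbp1 because hepatocytes are its main source. Of 8 hepatocyte markers 5 could be tested and 0 were called by edgeR (1 was lower at an unadjusted p under 0.05 and with DESeq2, and 0 with limma-voom), Serpina3k was at 0 in all 7 libraries, and Alb had means of 6.22 CPM and 3.84 CPM in the groups labelled CDH11+/+ and CDH11-/-. Their summed level was 51.1 to 61.0 CPM in the group labelled CDH11+/+ and 15.6 to 81.8 CPM in the group labelled CDH11-/-. Most of that sum was Fga and Ttr. Apoa1 had means of 0.101 and 0.0493 CPM in the groups labelled CDH11+/+ and CDH11-/-, and Ahsg had means of 0.00385 and 0 CPM. In the same order, Apoa2 had means of 0.534 and 0.483 CPM and Fgb of 0.948 and 0.451 CPM. Fga had 26.9, 28.7 and 51.8 CPM in the libraries labelled CDH11+/+ and 12.3, 18.9, 30.4 and 30.7 CPM in the libraries labelled CDH11-/-. Ttr had 18.0, 18.5 and 0.289 CPM against 0.201, 57.6, 0.671 and 0.276 CPM, so that the highest sum, in CDH11-/- replicate 2, was mostly Ttr. The part of liver transcripts in the Igfbp1 values was not tested.

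Igfbp3, the main IGF carrier of serum, which in the kidney is known from endothelial cells, lies next to Igfbp1, 3539 bases away with the opposite orientation, so that the genes converge (ENSMUSG00000020427, mm10 chromosome 11, 7206086 to 7213923, minus strand). It had 122.9, 145.2 and 187.7 CPM in the libraries labelled CDH11+/+ and 109.0, 107.4, 120.1 and 58.0 CPM in the libraries labelled CDH11-/-. The groups did not overlap, as was so for 38.5% of all tested genes, but the gap between them was narrow and CDH11-/- replicate 4 lay well below the rest of its group. Igfbp3 missed the threshold (log2 fold change -0.62, SE 0.26, unadjusted p = 0.0456, adjusted p = 0.114, edgeR). Its 95% interval, at 5 residual degrees of freedom, ran from -1.29 to 0.040. The edgeR test uses more degrees of freedom than that, so the interval is wider than its unadjusted p implies. DESeq2 called Igfbp3 lower (log2 fold change -0.63, adjusted p = 0.0157), while the other alternatives run on this gene gave an adjusted p of 0.0626 to 0.329. Without CDH11-/- replicate 4 the log2 fold change was -0.44, and without CDH11+/+ replicate 3 it was -0.45. Of 10 endothelial markers 5 were called lower by edgeR and 0 higher (0 also at an unadjusted p under 0.05 and with DESeq2 and limma-voom), with a summed level of 526.8 to 651.7 CPM in the group labelled CDH11+/+ and 399.7 to 480.8 CPM in the other, and the part of this in the Igfbp3 values was not tested.

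Igfbp4 encodes a binding protein that mostly restrains IGF action and is the classical substrate of PAPP-A (ENSMUSG00000017493, mm10 chromosome 11, 99041244 to 99054392, plus strand). It had 363.6, 443.5 and 488.5 CPM in the libraries labelled CDH11+/+. In the libraries labelled CDH11-/- it had 752.5, 750.2, 762.8 and 720.2 CPM. The libraries labelled CDH11-/- lay close together, with a coefficient of variation of 2.45% against 14.6% in the other group, and all were above the libraries labelled CDH11+/+. The group means were 431.8 ± 63.2 (SD, n = 3) and 746.4 ± 18.3 CPM (SD, n = 4), so that Igfbp4 rose 1.73-fold (log2 fold change 0.79, SE 0.099, adjusted p = 0.000634, edgeR).

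Igfbp5, which binds matrix as well as IGFs, and Igfbp7, which binds IGFs weakly and is known as a urinary marker of acute kidney injury, were abundant and not called. Igfbp5 (ENSMUSG00000026185, mm10 chromosome 1, 72857932 to 72874884, minus strand) had 421.1, 301.9 and 396.0 CPM in the libraries labelled CDH11+/+ and 425.2, 423.3, 437.0 and 399.5 CPM in the libraries labelled CDH11-/-. Only CDH11+/+ replicate 2 stood away from the others. Its log2 fold change was 0.18 (adjusted p = 0.257, edgeR), with a 95% interval from -0.10 to 0.45. Igfbp7 (ENSMUSG00000036256, mm10 chromosome 5, 77349240 to 77408041, minus strand) had 512.4, 464.3 and 590.1 CPM against 584.9, 506.6, 576.9 and 499.2 CPM. The groups were mixed, and its log2 fold change was 0.053 (adjusted p = 0.722, edgeR), with a 95% interval from -0.20 to 0.31. Polr2b overlaps Igfbp7 on the opposite strand, with means of 38.6 and 42.3 CPM in the groups labelled CDH11+/+ and CDH11-/-. Reads of that pair, too, may not have been fully separated. Among 9 fibroblast and mural cell markers, cells that also transcribe these genes, 1 was called higher and 2 lower, with summed levels of 282.4 to 443.0 CPM in the group labelled CDH11+/+ and 354.2 to 446.8 CPM in the other.

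The make-up of the binding protein transcripts differed accordingly. Of the summed CPM per kb of the 5 genes, Igfbp4 made up 13.4%, 17.3% and 15.3% in the libraries labelled CDH11+/+ and 22.3%, 24.4%, 22.6% and 24.6% in the libraries labelled CDH11-/-. Igfbp3 made up 6.37%, 7.97% and 8.27% against 4.56%, 4.93%, 5.02% and 2.80%. Igfbp7 remained the largest share in every library, at 66.0% to 68.8% in the group labelled CDH11+/+ and 60.2% to 63.4% in the group labelled CDH11-/-, and Igfbp1 made up 0.0825% to 0.494%. These shares are a description, since a share must fall when another rises.

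**Figure D3:**
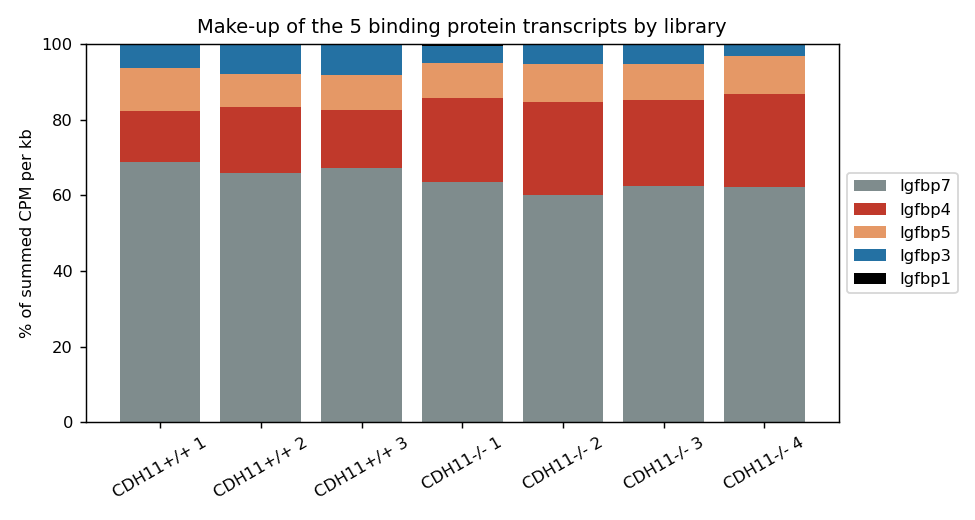
Share of each of the 5 binding protein genes in their summed CPM per kb of exon (% of the sum), by library. Igfbp4 took 13.4% to 17.3% in the 3 libraries labelled CDH11+/+ and 22.3% to 24.6% in the 4 libraries labelled CDH11-/-, while Igfbp1 is barely visible at the top of each bar.

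A list of 42 further genes of the pathway was examined in the same fit, of which 40 could be tested, and 6 were called higher and 10 lower. That is 40.0% of those tested, against the background of 29.7%, and their median log2 fold change was -0.11. Of the other binding protein genes, Igfbp2, Igfbp6 and Igfals were tested and 0 were called by edgeR, DESeq2 or limma-voom, with 0 at an unadjusted p under 0.05. Igfals, whose product holds IGFs and their carriers in a larger serum complex, was the most abundant of them with means of 6.70 and 8.36 CPM in the groups labelled CDH11+/+ and CDH11-/-, and Igfbpl1 had 0 counts in every library.

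Among 6 genes of proteases and their inhibitors, 1 was called higher and 1 lower by edgeR, which is 33.3% and near the 29.7% of all tested genes, and DESeq2 and limma-voom each called 1 higher and 2 lower. Pappa, the gene of the protease that cleaves IGFBP-4, had 46.2, 58.7 and 39.7 CPM in the libraries labelled CDH11+/+ and 22.4, 23.6, 21.4 and 26.5 CPM in the libraries labelled CDH11-/-. The groups did not overlap, and Pappa was 2.05-fold lower (adjusted p = 0.000707, edgeR) in the libraries where Igfbp4 was 1.73-fold higher. Htra1, a secreted serine protease that also cleaves IGF binding proteins, went the other way, from 51.6, 53.2 and 56.2 CPM to 85.8, 89.8, 96.7 and 91.7 CPM (1.70-fold higher, adjusted p = 8.83e-05, edgeR). The stanniocalcin genes, whose products inhibit PAPP-A, were not called by edgeR, with a log2 fold change of -0.80 for Stc1 (adjusted p = 0.0754) and -0.098 for Stc2 (adjusted p = 0.591). Stc1 was called lower by DESeq2 (adjusted p = 0.00873) and by limma-voom (adjusted p = 0.0392).

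Of 7 genes of JAK2, STAT5 and their feedback inhibitors, 1 was called higher and 1 lower by edgeR, which is 28.6% and near the 29.7% of all tested genes. DESeq2 called 2 higher and 2 lower, and limma-voom called 2 higher and 0 lower. Stat5a, a transcription factor activated by growth hormone and prolactin receptors, rose 1.55-fold, with means of 14.6 ± 1.79 (SD, n = 3) and 22.6 ± 4.47 CPM (SD, n = 4, adjusted p = 0.0154, edgeR), a call lost without CDH11+/+ replicate 1 or 2. Its close copy Stat5b was the more abundant of them, at 33.1 and 37.4 CPM, and was not called by edgeR (adjusted p = 0.0524) or DESeq2 (adjusted p = 0.0545) but was called higher by limma-voom (log2 fold change 0.19, adjusted p = 0.0461). Socs2 and Cish, which growth hormone induces and which damp its signal, were not called by edgeR and overlapped between groups. Socs2 had 15.4, 16.6 and 14.3 CPM against 14.9, 24.7, 31.5 and 24.6 CPM (log2 fold change 0.63, adjusted p = 0.0683 with edgeR, 0.0097 with DESeq2 and 0.11 with limma-voom), with CDH11-/- replicate 1 at the level of the group labelled CDH11+/+. Cish had 31.2, 36.7 and 27.3 CPM against 22.4, 47.3, 53.0 and 32.1 CPM (log2 fold change 0.28, adjusted p = 0.516, edgeR). Socs3, the feedback inhibitor better known from cytokine signalling, fell 3.14-fold (adjusted p = 0.0295, edgeR, and 0.0518 with limma-voom), but much of its mean in the group labelled CDH11+/+ came from replicate 3, with 14.6 CPM beside 4.69 and 3.91 CPM in replicates 1 and 2 and 2.12 to 2.71 CPM in the libraries labelled CDH11-/-. Without that library the log2 fold change of Socs3 was -0.81 in place of -1.65, and Socs3 was still called lower (adjusted p = 0.00559, edgeR). The call was lost when any of the libraries labelled CDH11-/- was left out (adjusted p of up to 0.0767, edgeR). It was also lost with no filter (adjusted p = 0.079, edgeR).

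Of 7 adaptor genes downstream of the receptors, 4 were called lower by edgeR, which is 57.1%, where 12.9% of all tested genes were called lower, and 0 were higher by edgeR, DESeq2 or limma-voom or at an unadjusted p under 0.05. Irs1, a main docking protein of the insulin and IGF-I receptors, had 71.0, 77.3 and 56.8 CPM in the libraries labelled CDH11+/+ and 53.5, 37.9, 39.1 and 46.1 CPM in the libraries labelled CDH11-/-, a 1.55-fold difference (adjusted p = 0.0112, edgeR). Its relative Irs2, the most abundant of the adaptors, was not called (means of 80.0 and 69.6 CPM, adjusted p = 0.598, edgeR). Grb14, an adaptor that inhibits the insulin receptor, was 1.45-fold lower (adjusted p = 0.0200, edgeR). Sh2b1, which enhances JAK2 activity, and Shc1, which links receptors to Ras, were 1.19-fold and 1.14-fold lower (adjusted p = 0.0199 and 0.0230, edgeR).

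In the PI3-kinase, AKT, FOXO and mTOR group, 4 of 13 were called higher and 2 lower by edgeR, which is 46.2% against 29.7% of all tested genes. DESeq2 and limma-voom each called 4 higher and 3 lower. The largest difference was that of Mtor, the kinase at the core of the growth-controlling mTOR complexes. It had 174.3, 175.1 and 192.6 CPM in the libraries labelled CDH11+/+ and 361.4, 345.8, 377.3 and 383.3 CPM in the libraries labelled CDH11-/-. The groups were far apart relative to their spread, and Mtor was 2.03-fold higher (log2 fold change 1.02, SE 0.070, adjusted p = 4.45e-05, edgeR). The catalytic subunit genes Pik3ca and Pik3cb were 1.32-fold and 1.14-fold higher and the regulatory subunit gene Pik3r2 1.24-fold higher, while the major regulatory subunit gene Pik3r1 was 1.24-fold lower (adjusted p of 0.00596, 0.0333, 0.00690 and 0.00284, edgeR). The kinase gene Akt1 was 1.21-fold lower (adjusted p = 0.00446, edgeR). Of 20 alternatives, the call was lost in 10 for Pik3cb, 7 each for Socs3 and Shc1, 4 for Grb14, 3 for Stat5a, 2 each for Sh2b1 and Pik3r2 and 1 for Irs1.

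**Figure D4:**
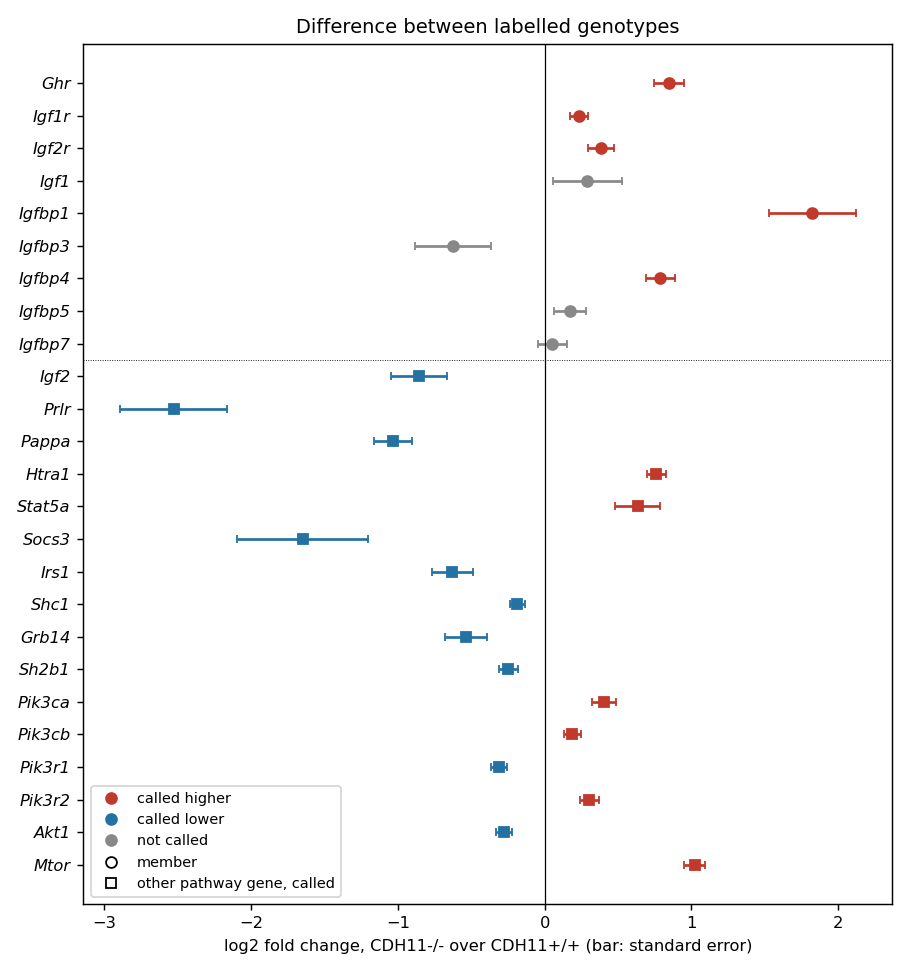
Log2 fold change of the group labelled CDH11-/- over that labelled CDH11+/+ (x axis, bars are standard errors from edgeR) for the 9 members (circles, above the dotted line) and the 16 called genes of the pathway list (squares). Of the members, 5 lay right of 0 and were called, and of the other called genes 6 lay right and 10 left.

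For each called member, the protein-coding genes with the most similar profile were sought among 12766 genes that averaged 1 CPM or more. Likeness was the root mean square difference of centred log2 CPM over the 7 libraries, where a smaller value is closer. Nearest to Ghr were Olfm4 (0.081) and Cenpl (0.086), and nearest to Igfbp4 were Gmpr (0.034) and Neu1 (0.046). Nearest to Igf2r were Fam98c (0.018) and Mlxipl (0.038), nearest to Igf1r were Erbb2 (0.023) and Harbi1 (0.030), and nearest to Igfbp1 were Slc7a2 (0.24) and Slc9a8 (0.28). The profiles share the same 7 libraries and the same split between labelled genotypes, so nearness here is mostly a like difference between the groups.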

How the data were processed

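RNA of 7 kidneys was sequenced from directional NEBNext Ultra II libraries, per the labels' protocols. The deposited expected counts (estimated reads per gene, as whole numbers) came from the authors' pipeline, for which DRAGEN, DESeq2 and mm10 are listed, with no versions, per the submitters' processing notes. No annotation release, strand setting or filter is stated in those sources. The authors' deposited normalized values (a signal with no fixed total) equal the counts divided by factors that differ between genes within a library, and they served only as alternatives.

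Symbols and positions came from GENCODE M21 on the same assembly, which matched 42170 of 42256 identifiers. Groups came from the genotype label. Replicate numbers follow the order of deposit. Every pair of libraries differed beyond sampling noise (median chi-square per gene of 2.69 to 12.8), so all 7 counted as samples. Genes were filtered with filterByExpr, scaled by TMM and tested with edgeR 4.0.16 (R 4.3.3) by the robust quasi-likelihood test, 2-sided, with Benjamini-Hochberg adjustment over 17964 genes and a threshold of 0.05. SEs were derived from the F statistic. The common dispersion was 0.0231. The fit was tested on simulated data. CPM used TMM-scaled library sizes, and levels per length used summed exon length. Promoter sequences were taken from RefSeq (GRCm38.p6), and all 9 members matched. Alternatives used DESeq2 1.42.0, limma 3.58.1 and sva 3.50.0. Python 3.11.15 and pandas 2.3.3 made the summaries.

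The members, pathway list, marker lists, tests and alternatives were chosen with earlier results of these data known. Named genes were all members, every called gene of the pathway list, otherwise the most abundant gene of a role, and the 2 nearest profiles of each called member. Insr, Igfals, Stat5b, Stc1, Stc2, Socs2, Cish, Igfbp2, Igfbp6, Gh and Igfbpl1 were named for their role, some of them after their values were seen, and the Y-linked genes likewise. Some genes of the pathway are not reported here and were left out of its counts.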

Additional observations from a re-analysis of the deposited data

How the results depend on the processing

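Across 20 alternatives the 9 members kept their direction and their side of the threshold in 172 of 180 combinations. The exceptions were Igf1r, whose call was lost in 5, Igf2r, whose call was lost at an adjusted p under 0.01, Igfbp3, called only by DESeq2, and Igfbp7, whose log2 fold change of 0.053 ranged from -0.025 without CDH11+/+ replicate 2 to 0.14 without CDH11+/+ replicate 3. The cause was not tested. At an adjusted p under 0.01, 2784 of all genes, 3 members and 9 pathway genes were called, as the stricter threshold requires fewer. The members called numbered 4 to 5, the pathway genes 11 to 20 and all genes 3804 to 5300 when each library was left out in turn. The 20 pathway genes were those called without CDH11+/+ replicate 3, 6 higher and 14 lower, against 6 higher and 10 lower with all libraries. DESeq2 called 6 members, 5 higher and 1 lower. The log2 fold change of Prlr was -3.19 on log2 of the authors' normalized value plus 1, against -2.53. The median of the members on that scale was 0.21, also with 0.1 in place of 1. RLE and upper-quartile scaling, TMM without mitochondrial transcripts, 1 surrogate variable, voom, omission of the filter or of robust estimation, a filter at 1 CPM on average, the authors' factors as offsets and protein-coding genes alone each left 5 members called. No paired analysis was possible because the labels carry no replicate numbers that link mice of the 2 groups. The lowest count of a member in any library was 79, that of Igfbp1.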
